A study of Rattus norvegicus with 6 samples.

Results

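The first 10 Mb of rat chromosome 20 (build rn5), the chromosome end that carries the major histocompatibility complex (MHC), were examined for open chromatin in cultures of microglia, the macrophages of the brain. All counted regions of chromosome 20 that start in those first 10 Mb were taken, with no further choice. They numbered 769 of the 3350 regions counted on chromosome 20 and of the 129499 counted in the genome. The other 2581 regions of the same chromosome served as the comparison.

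The libraries were made by DNase I sequencing, in which DNase I cuts DNA that is not wrapped in nucleosomes, so that more cut ends in a region mean more accessible chromatin. Microglia came from the cerebral cortex of Wistar rat pups 1 day old, were kept in mixed culture for 2 weeks in medium with 10% serum, then shaken off and rested for 48 h. The untreated group received nothing further. The LPS group received 100 ng/mL lipopolysaccharide of Salmonella enteritidis, a bacterial cell wall component, for 6 h. The GCM group received glioma-conditioned medium for 6 h, which is medium harvested after 24 h from cultures of C6, an established rat glioma line. Each of the 3 groups had 2 independent cultures, each pooled from 10 to 15 pups, so the spread between libraries is that between pooled cultures. In every group, nuclei had been digested for 10 min with a series of 0.2 to 3.2 U of DNase I, and 3 concentrations were used. Neonatal cells grown in serum differ from adult microglia in the brain, and the label "microglia" could not be checked against marker genes, because the regions carry no gene names.

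The MHC holds several families of immune genes close together. Class I genes (RT1-A and its relatives in the rat) encode the molecules that show peptides from inside the cell to cytotoxic T cells, and Tap1, Tap2, Tapbp, Psmb8 and Psmb9 make and load those peptides. Class II genes (RT1-B, RT1-D and RT1-DM) show peptides taken up from outside to helper T cells. The class III genes include Tnf, Lta and Ltb (inflammatory cytokines), C2, Cfb and the C4 genes (complement) and Aif1. The last of these encodes the microglial protein Iba1. LPS is a textbook inducer of Tnf in macrophages and microglia. For this work 45 genes of the MHC and its neighbourhood were listed. In RefSeq's table for the newer rat assembly GRCr8 all 45 lie on chromosome 20, but that table gives no positions on rn5. The regions are therefore given by position, and no region is assigned to a gene. Class I genes exist in near-identical copies, so the short DNase I tags of such copies may not be separable, and how tags with several matches were treated is not given in the sources used here.

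Open regions were packed more densely in the first 10 Mb than in the rest of the chromosome. There were 76.9 regions per Mb, beside 54.0 per Mb in the rest of chromosome 20 and 44.4 per Mb on the other chromosomes. They covered 38.8 kb per Mb, beside 26.8 kb in the rest. The median distance to the next region was 3409 bp, beside 4512 bp, and the median width was 398 bp, beside 377 bp. Positions along a chromosome are not replicates, so these densities carry no test. Among the 233 windows of 10 Mb in the genome with at least 200 tested regions, 33 held more regions. That minimum of 200 was set after the data had been seen.

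The density was uneven within the stretch. The first Mb held 12 regions and the next 2 held none, and the fourth held 14. From the fifth Mb on the counts were 61, 125, 150, 136, 110 and 161 regions per Mb. The longest interval without a counted region was chr20:303192-3587349, which is 3284 kb long. The interval was not empty of signal: the hotspot lists of the authors, which give local concentrations of cut ends for each library, placed 2 to 4 hotspots per library there, 16 over the 6 lists. A counted region needs hotspots in both cultures of a group at the same place, and none of the 16 gave one. Whether this interval holds assembly gaps or repeated sequence was not tested. Over the 8 Mb that did hold regions the density was 96.1 per Mb, beside 58.7 per occupied Mb in the rest of the chromosome.

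**Figure D1:**
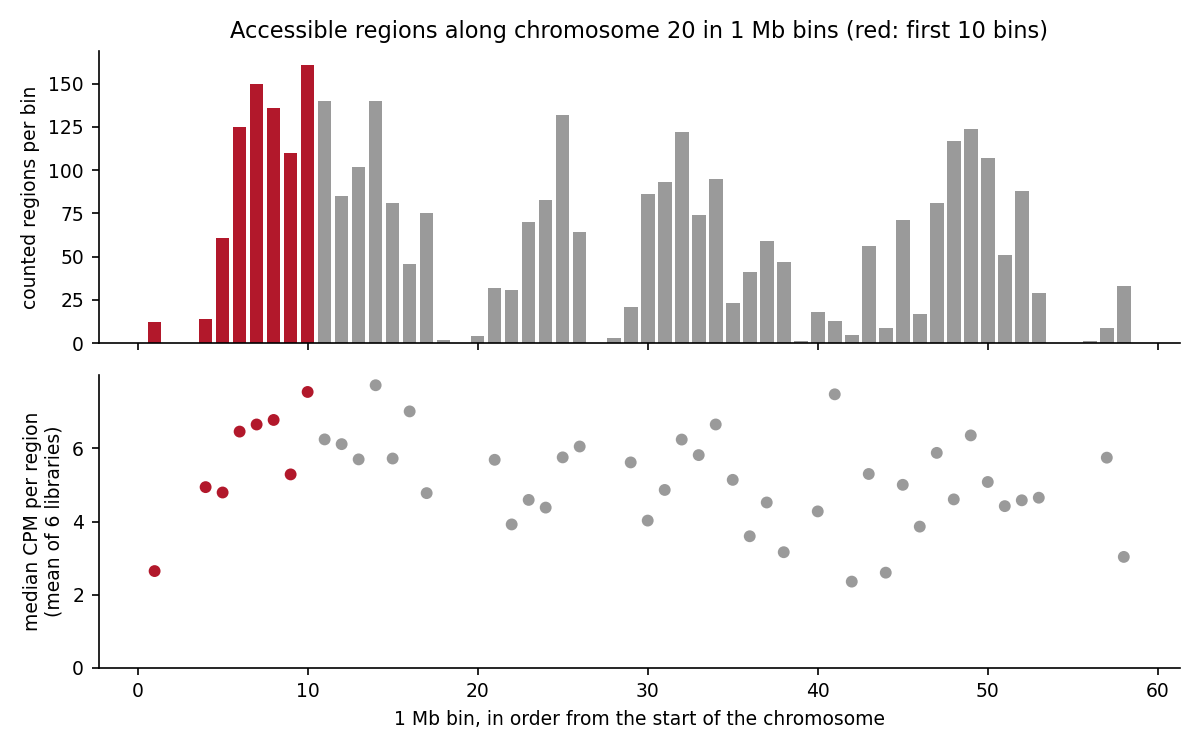
Counted open regions in each 1 Mb bin of chromosome 20 (upper panel, bars) and the median level of the regions in bins with at least 5 regions (lower panel, points, CPM averaged over 6 libraries). Red marks the first 10 bins, which run from 0 regions in bins 2 and 3 to 161 regions in bin 10; bin 11 is dense as well, with 140 regions.

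The same excess was seen in each library separately. The 2 untreated libraries had 85.0 and 71.1 hotspots per Mb in the stretch, beside 65.5 and 45.0 in the rest of the chromosome. The LPS libraries had 78.2 and 88.3, beside 57.9 and 63.2, and the GCM libraries 74.0 and 80.9, beside 51.9 and 56.0. The ratio of the densities lay between 1.30 and 1.58 in all 6 libraries. The untreated ratios were the lowest and the highest and so enclosed those of LPS (1.35 and 1.40) and GCM (1.43 and 1.44). The excess depended on where the boundary was drawn. With a limit at 8 Mb the ratio of regions per Mb was 1.09 and with a limit at 12 Mb it was 1.61, beside 1.42 at 10 Mb, and the last Mb inside held 161 regions and the first outside 140. In CPM, the unit of level explained next, the last region inside, chr20:9997540-9998230, averaged 14.7 and the first outside, chr20:10001709-10002034, averaged 3.47.

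Regions of the stretch were also somewhat more accessible. Levels are given as CPM, the count of a region divided by the library's total over all regions, scaled between libraries by TMM and put on the usual common scale. They grow with the width of a region. The median over regions of the mean CPM of the 6 libraries was 6.39 in the stretch, 5.39 in the rest of chromosome 20 and 5.09 elsewhere. Levels over 12 CPM were reached by 24.3% of the stretch and 19.4% of the rest. The median level in single libraries was 1.07 to 1.24 times that of the rest, lowest in LPS culture 1. Per kb of width the medians were 15.0 and 13.5 CPM per kb, so the difference was smaller once width was taken into account. Hotspots in all 6 libraries were found for 61.9% of the regions (476), beside 54.4% in the rest. Among regions with hotspots in all 6 libraries the median level was 1.04 times that of the rest, averaged over the libraries.

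The highest regions by CPM were wide, and neither stimulus was called in them. The highest mean, 37.2 CPM, belonged to chr20:6897696-6899531, which had 39.8 and 39.2 CPM in untreated, 32.5 and 40.8 with LPS and 40.3 and 30.9 with GCM. The other 4 of the 5 highest regions (chr20:7899988-7901660, chr20:6447719-6448935, chr20:8302326-8303942 and chr20:7066234-7067877) averaged 35.0 to 36.1 CPM. At chr20:7899988-7901660 all 4 stimulated libraries, at 31.2 to 37.3 CPM, were below both untreated ones, at 39.2 and 39.5. At chr20:7066234-7067877 both GCM libraries, at 33.3 and 32.7 CPM, were below both untreated ones (35.1 and 39.8) and both LPS ones (34.2 and 35.3). None of these differences passed the test, and in the other 3 regions the stimulated values overlapped the untreated ones. The widest region was chr20:5684954-5686968, with 2015 bp and 34.8 CPM. The highest level per kb was that of chr20:6973057-6973366, a region of 310 bp with 39.1 CPM per kb. The third highest per kb, chr20:4695115-4695669 (35.9 CPM per kb), was called as decreased with LPS (log2 -0.40, adjusted p = 0.0387, edgeR). The others of the 5 highest per kb were not called with either stimulus. No region of the stretch came near the highest of the rest of the chromosome, which had 155 CPM.

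The LPS cultures differed from each other over most of the stretch, which bears on the LPS results that follow. The summed level of the 769 regions was 6691 and 6931 CPM in the untreated libraries. It was 6222 and 7079 CPM in the LPS libraries, and 6535 and 6378 in the GCM libraries. The LPS values thus lay on both sides of the untreated ones. Of the 757 regions tested, 72.4% were higher in LPS culture 2 than in LPS culture 1, with a median log2 difference of 0.16. In the rest of the chromosome it was 51.4%, with a median of 0.01. By Mb, culture 2 had the higher summed level in the first and from the sixth to the tenth, while in the fourth (98.8 and 91.0 CPM) and the fifth (470.6 and 465.5 CPM) culture 1 was higher. Among the 233 windows, 1 showed a larger median difference between the LPS cultures. The untreated cultures, which enter both comparisons with a stimulus, differed less. In the stretch 57.3% of regions were higher in untreated culture 2 (median 0.05), beside 51.8% in the rest (0.01). A larger median was found in 7 windows. For GCM, 48.0% of the stretch was higher in culture 2 (median -0.02), beside 50.3% of the rest (0.00). The cause was not tested.

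With all 6 libraries, no change of the stretch as a whole was called with either stimulus. Counts summed over the stretch changed by -0.03 ± 0.04 (log2, SE) with LPS and by -0.08 ± 0.04 with GCM. The adjusted p-values of edgeR's quasi-likelihood test over all 10 Mb windows were 0.691 and 0.108. For scale, 9.86% of the windows of the genome were called with LPS and 20.1% with GCM. GCM differed from LPS by -0.04 ± 0.04 (adjusted p = 0.998 in the same edgeR fit), and 0.0% of windows were called there. The LPS value rested on which culture was used: without LPS culture 2 it was -0.13 and called (adjusted p = 0.0117, edgeR), and without LPS culture 1 it was 0.056 and not called.

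Set against the rest of its own chromosome, the stretch took a similar share of counts in all groups. The ratio of counts in the stretch to counts in the rest was 0.321 and 0.329 for untreated, 0.300 and 0.336 for LPS and 0.311 and 0.313 for GCM. Both GCM values were below both untreated values, while the LPS values enclosed all others. The exact two-sided permutation test gave p = 0.33 for GCM and p = 1 for LPS, and 0.33 is the smallest p that 2 against 2 libraries can give. None of the 8 Mb that hold regions was called in any comparison, where 8.62% of the 1 Mb bins of the genome were called with LPS, 12.5% with GCM and 2.56% between GCM and LPS. In each Mb from the fifth to the tenth, both GCM libraries were below the untreated mean.

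**Figure D2:**
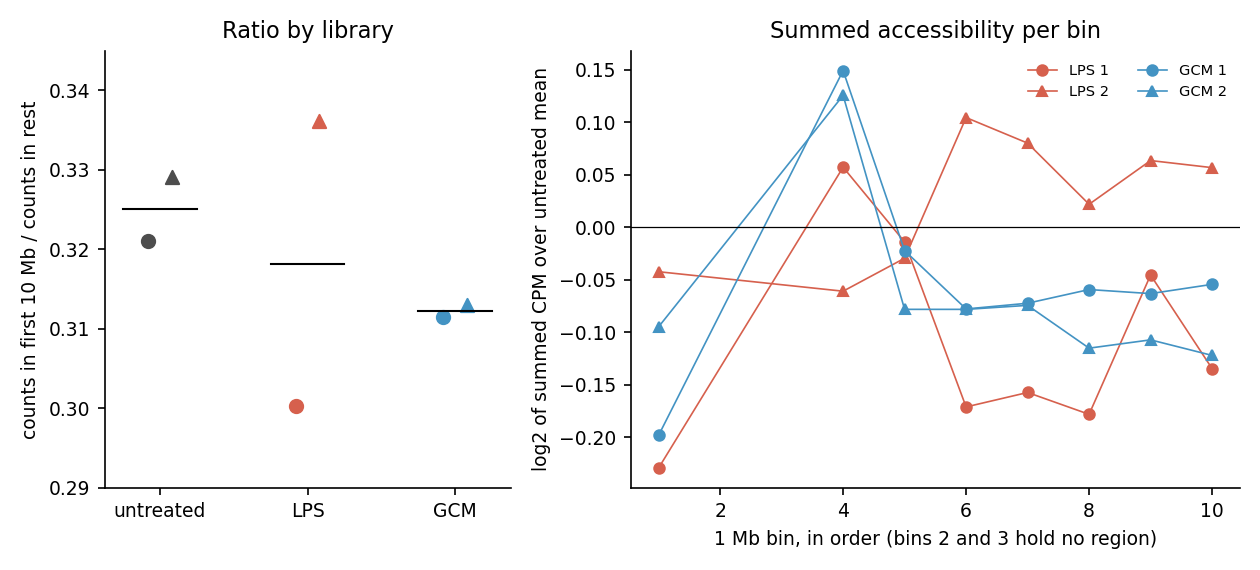
Left, the ratio of counts in the first 10 Mb to counts in the rest of chromosome 20 (points, 6 libraries; circles culture 1, triangles culture 2; lines, group means; the axis does not start at 0). Right, the log2 ratio of the summed CPM of each 1 Mb bin to the mean of both untreated libraries, for the LPS and GCM libraries; from the sixth bin on, LPS culture 2 is above 0 and LPS culture 1 below it.

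Few single regions were called with LPS. Of 757 tested regions, 15 increased and 17 decreased at an adjusted p under 0.05 (edgeR quasi-likelihood test, Benjamini-Hochberg over all regions of the genome), which is 4.23%. Over the genome 9.85% of tested regions were called, 6.71% as increased and 3.14% as decreased. In the rest of chromosome 20, 152 of 2510 regions increased (6.06%) and 76 decreased (3.03%). The stretch thus had 1.98% increased and 2.25% decreased, so the shortfall was mostly among increases. Its share of called regions was the lowest of the 233 windows, whose median was 9.88%. The shares were not compared by a test, since neighbouring regions are not independent.

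The 2 LPS cultures shifted the split between rises and falls. The median log2 change of the stretch was 0.05 without LPS culture 1 and -0.12 without LPS culture 2. In the rest of chromosome 20 it was -0.02 in both cases. Without LPS culture 1, the share of increases in the stretch ranked less low among the windows. Without LPS culture 2, no window had a lower share of increases. Scaling libraries within each 10 Mb window, an alternative chosen after seeing the data, removes the shift between the cultures. With it, 22 regions were increased and 14 decreased, 4.76% of the stretch beside 9.20% of the rest. The increases were 2.91% of the stretch, and no window had a lower share of increases with this scaling. In each of the 17 alternatives the share called in the stretch was below that of the rest of the chromosome. It was no longer the lowest window in 8 of the 17. The DESeq2 Wald test put 18 windows lower, and regions with hotspots in all 6 libraries put 5 lower. Without LPS culture 1 or 2 it was 7 or 12 windows, without untreated culture 1 or 2 it was 6 or 4, and with no filter or with scaling within windows it was 1. The DESeq2 Wald test called 1 region.

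**Figure D3:**
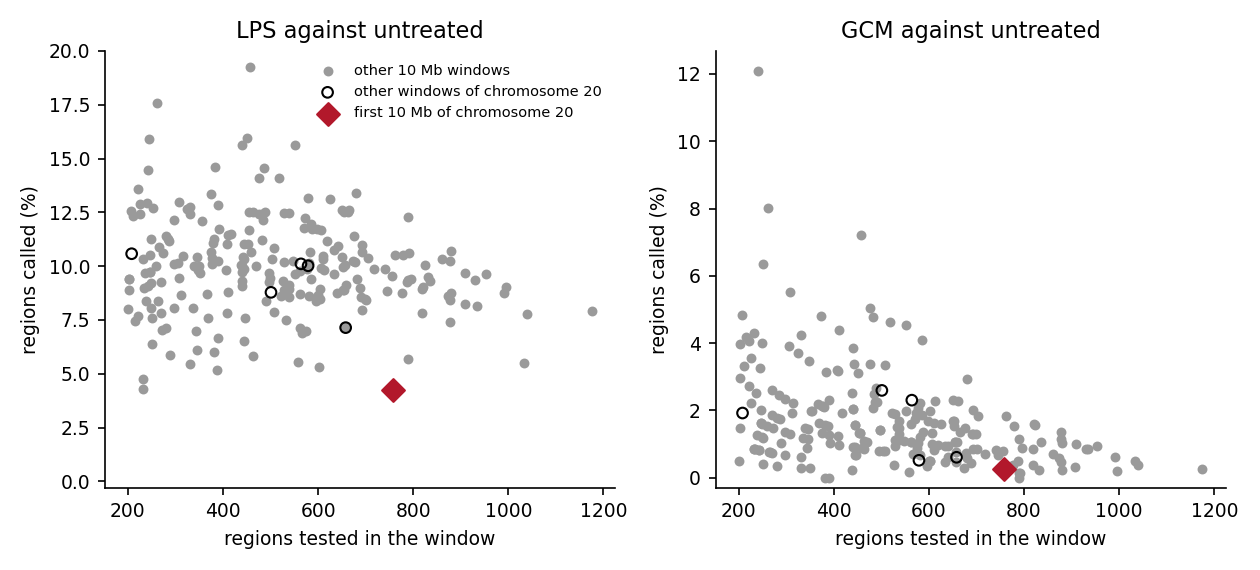
Share of tested regions called (adjusted p under 0.05) in each of the 233 windows of 10 Mb with at least 200 tested regions, against the number of regions tested, for LPS (left) and GCM (right). The first 10 Mb of chromosome 20 (red diamond) lie at 4.23% with LPS and 0.264% with GCM; open circles are the other windows of the chromosome.

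The share of increases was lower than in the rest at each level of accessibility, though on few regions. Below 3 CPM, 2.73% of the stretch and 4.77% of the rest increased. Between 3 and 6 CPM it was 3.24% and 8.14%, between 6 and 12 CPM 1.41% and 6.81%, and over 12 CPM 0.535% and 2.99%. In the order of level, these shares of the stretch rest on 3, 8, 3 and 1 increased regions. In percentage points decreases differed less. They were 1.82% in the stretch and 3.44% in the rest below 3 CPM, and 2.02% and 2.67% between 3 and 6 CPM. Between 6 and 12 CPM they were 2.82% and 3.93%, and over 12 CPM 2.14% and 1.99%. Among regions with hotspots in all 6 libraries 0.84% increased, beside 3.14% in the rest, and among the others 3.91% beside 9.76%. None of the 70 tested regions of the widest class (over 1000 bp) was called, beside 9 of 232 in the rest. The median size of the LPS effect, without regard to direction, was 0.17 (log2) in the stretch and 0.21 in the rest.

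**Figure D4:**
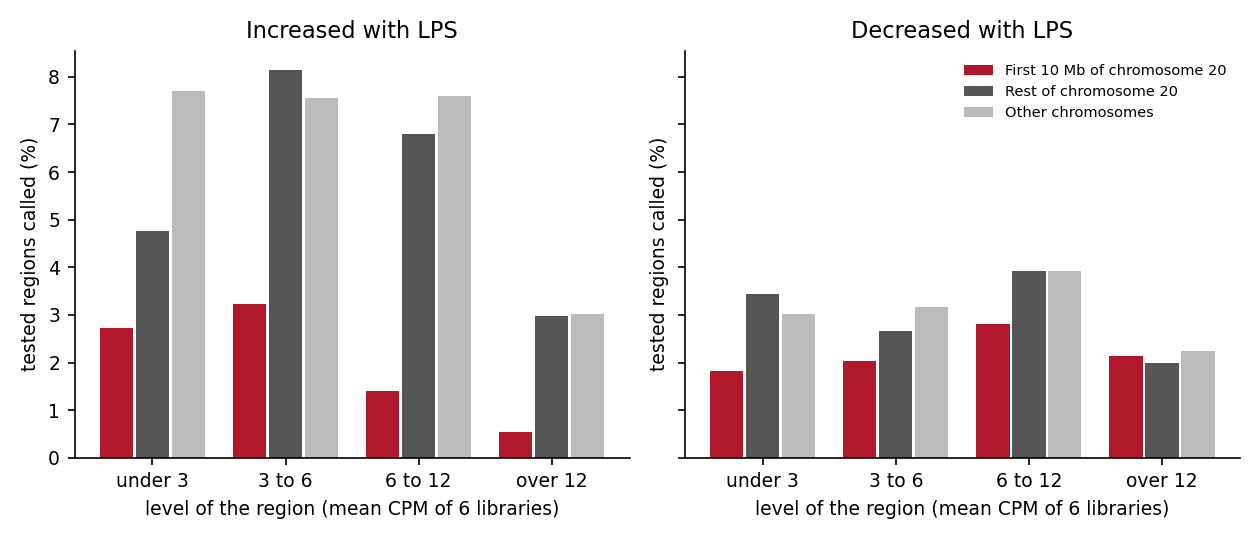
Share of tested regions that increased (left) or decreased (right) with LPS, by level of the region, for the first 10 Mb of chromosome 20 (red), the rest of the chromosome (dark grey) and the other chromosomes (light grey). Red bars are the lowest at each level on the left. On the right they are the lowest at the levels below 12 CPM, and the bars for regions over 12 CPM are close together.

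The increased regions all lay past the first 6 Mb, a limit set after their positions were seen, so the 0 below it is a description. None of the 208 tested regions below 6 Mb increased, while 15 of 549 above it did; 4 and 13 decreased on the same sides. The increased regions were of low level before stimulation, with a median of 3.26 CPM in untreated cultures, and 8 of the 15 had no hotspot in either untreated library. The decreased regions had a median of 8.38 CPM in untreated cultures, and all 17 had an untreated hotspot, as did all but 47 of the 725 regions not called. Untreated levels enter the choice of these regions, so they are a description. In each of the 32 regions both LPS values lay on one side of both untreated values. Changes were moderate: 3 increases and 3 decreases were over 2-fold.

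The increase with the smallest p was at chr20:8067660-8068042 (383 bp). It had 2.77 and 2.38 CPM untreated, 7.30 and 6.85 with LPS and 3.68 and 3.85 with GCM. Both LPS cultures were far above the others and close to each other. The log2 fold change with LPS was 1.43 ± 0.22 (adjusted p = 1.76e-05, edgeR), and this call held in all 16 alternatives that could be run for it, DESeq2 included. With GCM the change was 0.53 (adjusted p = 0.311, edgeR).

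A similar pattern was seen at chr20:9275686-9276033 (348 bp), with 3.13 and 2.80 CPM untreated, 7.40 and 7.17 with LPS and 2.33 and 3.03 with GCM. Here the GCM values overlapped the untreated ones while LPS stood apart, with a log2 fold change of 1.28 ± 0.21 (adjusted p = 5.64e-05, edgeR). The DESeq2 Wald test gave an adjusted p of 0.052. The region chr20:7169469-7169756 (288 bp) had 4.29 and 3.36 CPM untreated, 7.10 and 7.91 with LPS and 3.07 and 3.52 with GCM. It was open in all 6 libraries, so LPS raised a region that was already a hotspot, by 0.94 ± 0.20 (adjusted p = 0.00123, edgeR). DESeq2 did not call it (adjusted p = 0.217).

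In other increases the LPS cultures were less alike. The region chr20:7919724-7920429 had 7.33 and 7.28 CPM untreated and 14.1 and 10.5 with LPS, and was not called without LPS culture 1 or untreated culture 1. The region chr20:6906739-6906988 had 2.06 and 1.54 CPM untreated and 2.84 and 5.30 with LPS, so most of its rise was in culture 2, without which it was not called (adjusted p = 0.366, edgeR). The region chr20:6486302-6486665, with 3.31 and 3.22 CPM untreated and 4.87 and 7.09 with LPS, also lost its call without LPS culture 2. Over all 20 named LPS regions, 14 kept the call without LPS culture 1, 13 without LPS culture 2, 10 without untreated culture 1 and 9 without untreated culture 2.

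The remaining named increases were smaller in level or in size. They were chr20:8322519-8322803 and chr20:8225966-8226245, with log2 fold changes of 0.97 and 0.99, and chr20:6050995-6051664 and chr20:8606631-8607169, with 0.58 and 0.59. All 4 lost the call without LPS culture 2. The region at chr20:6050995-6051664 is 1.92 kb from another increased region, chr20:6048831-6049074, with no counted region between them. The latter had 1.43 and 1.82 CPM untreated, 2.74 and 3.50 with LPS and 0.614 and 1.47 with GCM. No other increases were that close together.

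The decrease with the smallest p was at chr20:7624566-7624946 (381 bp). It had 6.17 and 8.82 CPM untreated, 3.65 and 3.50 with LPS and 5.89 and 6.14 with GCM. LPS stood below all other libraries, in which hotspots were called, while neither LPS library had one. The log2 fold change was -1.02 ± 0.21 (adjusted p = 0.00087, edgeR), but without untreated culture 2 the adjusted p was 0.0567.

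The region chr20:302864-303191 is the last before the long interval without regions. It had 4.11 and 4.34 CPM untreated, 1.72 and 2.12 with LPS and 5.52 and 4.83 with GCM, so LPS was low and GCM slightly above untreated. The log2 fold change with LPS was -1.11 ± 0.26 (adjusted p = 0.00341, edgeR), and of all alternatives DESeq2 alone lost the call (adjusted p = 0.224). A direct comparison of GCM with LPS, which uses the same LPS libraries, gave 1.39 (adjusted p = 0.000105, edgeR), the largest difference in favour of GCM in the stretch.

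A region of high level, chr20:7930867-7931690 (824 bp), fell from 15.8 and 15.4 CPM to 10.2 and 9.37 with LPS, with 11.2 and 12.9 with GCM. It lies 10.4 kb from the increased region chr20:7919724-7920429, with 1 counted region between them, so neighbours moved in opposite directions. Among the 10 decreases named by p, chr20:5079922-5080543 was the highest. It had 21.9 and 27.4 CPM untreated, 15.6 and 17.9 with LPS and 16.9 and 17.8 with GCM. Both stimuli were below both untreated values there, by -0.53 with LPS (adjusted p = 0.0077, edgeR) and -0.48 with GCM (adjusted p = 0.0537, edgeR). The LPS call was lost without untreated culture 2 or LPS culture 1.

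The other decreases named by p were chr20:8559472-8560026, chr20:6256208-6256797, chr20:8970378-8970568, chr20:6937421-6937783, chr20:9148571-9149208 and chr20:5618847-5619346. Their log2 fold changes with LPS ran from -1.26 to -0.53. The largest fall in size, at chr20:8970378-8970568, was in a region near the lower end of detection, with 2.24 and 3.22 CPM untreated and 0.811 and 1.30 with LPS. Each of these 6 lost its call when 1 or more single libraries were left out. With libraries scaled to the total of all reads, 9 of the 20 named LPS regions were no longer called, of which 7 were decreases.

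**Figure D5:**
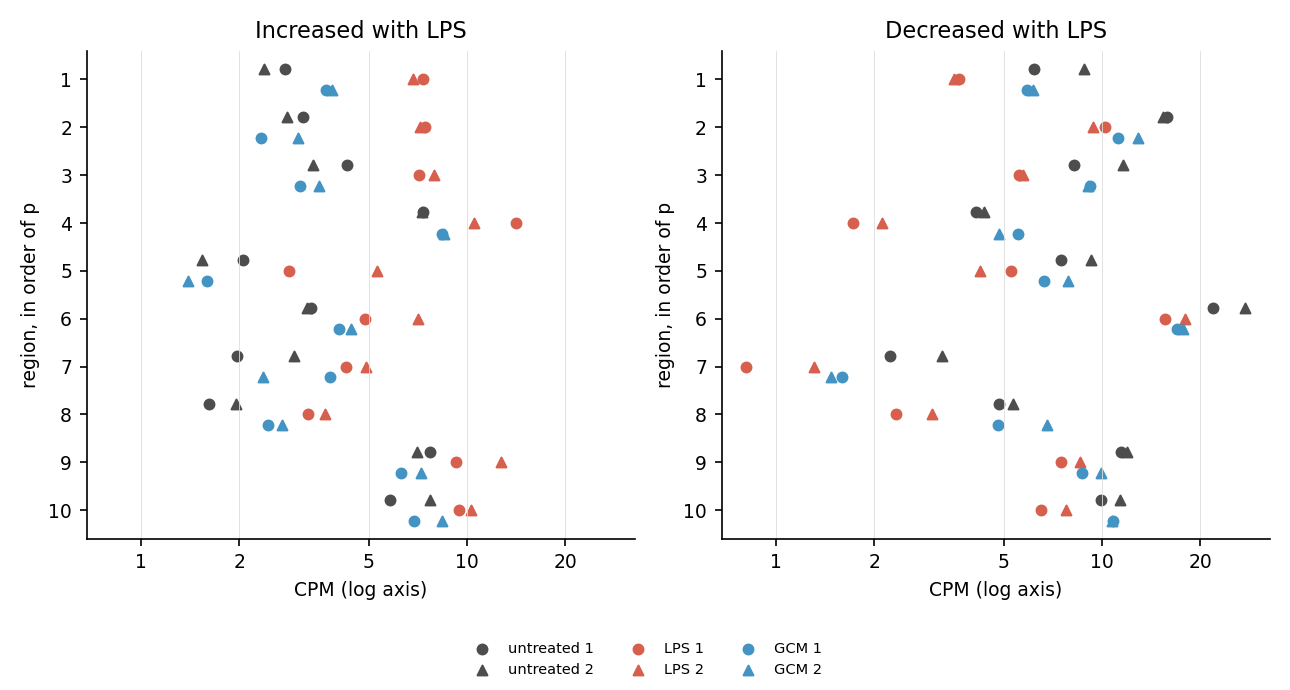
CPM in each of the 6 libraries (log axis) for the 10 named regions increased with LPS (left) and the 10 decreased (right), in order of p; circles are culture 1 and triangles culture 2. LPS points (red) lie on one side of both untreated points (dark grey) in each row, from 0.811 CPM in the seventh decreased region to 27.4 CPM in untreated culture 2 of the sixth.

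Almost no region of the stretch was called with GCM. Of 757 regions 1 increased and 1 decreased, which is 0.264%, where 1.57% of regions were called over the genome (1.34% increased, 0.231% decreased) and 1.47% in the rest of chromosome 20. The increased region, chr20:4496496-4496872, had 2.95 and 3.22 CPM untreated, 5.03 and 6.55 with GCM and 4.97 and 3.02 with LPS. Both GCM values were above both untreated ones, with a log2 fold change of 0.95 ± 0.24 (adjusted p = 0.0288, edgeR), and LPS culture 1 was just below the lower GCM value. The decreased region, chr20:9896274-9896541, had 3.40 and 4.34 CPM untreated, 1.47 and 2.05 with GCM and 2.74 and 2.20 with LPS, a log2 fold change of -1.05 ± 0.27 (adjusted p = 0.0376, edgeR).

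Both GCM calls were fragile. Neither was made without untreated culture 1, untreated culture 2 or GCM culture 2, or by DESeq2. In each of those settings most windows of the genome had no GCM call either, so this loss is not particular to these regions. At an unadjusted p under 0.05 there were 10 regions higher and 50 lower with GCM. The 50 lower are 6.61% of those tested, near the 7.29% of the rest of the chromosome and the 5.89% of the genome. The 10 higher are 1.32%, beside 7.05% and 9.23%. A log2 fold change above 0 was found for 34.2% of the tested regions, beside 45.0% in the rest, with a median of -0.06. With LPS the corresponding counts at an unadjusted p were 52 higher (6.87%, beside 11.9% in the rest and 13.6% in the genome) and 70 lower (9.25%, beside 9.44% and 10.0%).

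The direct comparison of the stimuli called 33 regions, 4.36% of those tested, of which 11 were higher with GCM and 22 higher with LPS. Over the genome it was 8.58% (3.75% higher with GCM, 4.84% higher with LPS), and in the rest of chromosome 20 it was 7.21%. This comparison uses the same LPS libraries as the one with untreated cultures. By p, the first 5 toward LPS were regions already named: chr20:9275686-9276033 (log2 -1.40), chr20:7169469-7169756 (-1.17), chr20:6906739-6906988 (-1.50), chr20:6048831-6049074 (-1.48) and chr20:8067660-8068042 (-0.90). Of these, chr20:9275686-9276033 passed in every alternative run.

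Toward GCM, next by p after chr20:302864-303191 came chr20:6937421-6937783, with 4.83 and 5.32 CPM untreated, 2.33 and 3.02 with LPS and 4.79 and 6.79 with GCM (log2 1.14, adjusted p = 0.000693, edgeR). The region chr20:7987986-7988335 differed between the stimuli without passing against untreated cultures. It had 3.76 and 2.94 CPM untreated, 2.64 and 2.85 with LPS and 4.42 and 5.16 with GCM, so untreated lay between the stimuli (log2 0.81, adjusted p = 0.0153, edgeR). That call was lost without either LPS culture or without GCM culture 2.

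In the authors' deposited tables of fold changes, which list 757 regions of the stretch, 15 were increased and 15 decreased with LPS at their adjusted p under 0.05, and 1 was increased and 2 decreased with GCM. By the authors' deposited tables that is 3.96% of the stretch with LPS, beside 9.08% of the rest of chromosome 20 and 9.81% of the other chromosomes. With GCM the authors' deposited table gave 0.396%, beside 1.63% and 1.83%. In bulk cultures, a change in the share of cells with an open region and a change in how open it is in each cell cannot be told apart.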

How the data were processed

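DNase I sequencing gave 6 libraries, 2 cultures in each of 3 groups. The submitters' processing notes name cutadapt 1.8.3, Bowtie 1.1.2, Picard 1.95, DiffBind and edgeR with build rn5, without order or settings. The authors deposited raw counts of tags per region. Their comparison tables hold, per the file headers, log2 fold changes, a likelihood ratio score, p-values and per-library CPM, which the authors scaled to all reads of a library. The deposited hotspot lists hold intervals with a score of unstated definition, not used here, at a false discovery rate of 0.01. A further 16 columns of per-library CPM per base were not used, since they do not follow their own lines.

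Counts of all regions were tested with edgeR 4.0.16 (R 4.3.3): all 6 libraries in 1 quasi-likelihood fit, TMM scaling, filter with a minimum count of 10, Benjamini-Hochberg over 126284 regions, threshold 0.05. The filter kept 757 of the 769 regions; the 12 left out were 10 to 87 bp wide. Counts were also summed per 10 Mb window and per 1 Mb bin and tested likewise with region-level library sizes. CPM here are relative to the counts in regions and TMM scaled, with factors from 0.986 to 1.01. Counts in regions were 7.14 M to 12.4 M per library, and the common biological coefficient of variation was 5.63%. The test was also tried on simulated data, with means and spread taken from the real counts. DESeq2 1.42.0 was an alternative. Python 3.11.15, pandas 2.3.3, scipy 1.17.1 and bedtools 2.31.1 served for summaries and overlaps of at least 1 bp.

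Named regions were, for LPS and GCM against untreated, the called regions of lowest p, up to 10 in each direction, in which both stimulated libraries lay beyond both untreated ones; for GCM against LPS 5 each way; the 5 highest by CPM and by CPM per kb (at least 150 bp wide), the 3 widest, and the regions on each side of the limit. A few are given only by range. The members and lists were chosen with earlier results of these data known. Sequences, motifs and gene positions on rn5 were not analysed here.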

Additional observations from a re-analysis of the deposited data

How the results depend on the processing

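The count of regions called with LPS (32) was 1 with the DESeq2 Wald test, 10 among regions with hotspots in all 6 libraries, 14 with whole-library totals (11 increased, 3 decreased, 78.6% increased) and 11 to 33 when single libraries were left out, lowest without either untreated culture. The count for GCM (2) was 0 with DESeq2, 0 among regions with hotspots in all 6 libraries, 0 with whole-library totals, 1 with scaling within windows and 0 to 4 without single libraries. The count for GCM against LPS (33) was 2, 10 and 16 under the first 3 of these settings and 13 to 41 without single libraries. With whole-library totals 12.5% of the latter calls were toward GCM. Calls fell over the genome too. The median share called with LPS in the 233 windows was 9.88% in the main fit. It was 0.569%, 5.59% and 5.44% under the same 3 settings, beside 0.130%, 2.10% and 1.85% in the stretch. For GCM the window median went from 1.32% to 0.0%, 0.833% and 0.233%. For GCM against LPS it went from 8.56% to 0.493%, 4.62% and 4.26%. Window medians also fell without either untreated culture. The summed change with LPS (-0.03) was 0.060 with whole-library totals and ran from -0.13 without LPS culture 2 to 0.056 without LPS culture 1; that of GCM against LPS (-0.04) ran from -0.13 without LPS culture 1 to 0.053 without LPS culture 2. Calls of single 1 Mb bins for LPS and for GCM against LPS also depended on which LPS culture was left out. The density ratio (1.42) was 1.09 and 1.61 with limits at 8 and 12 Mb, 1.62 among regions with hotspots in all 6 libraries and 1.73 against other chromosomes. The level ratio to the rest of the chromosome, taken in each library as a ratio of median CPM and averaged over the 6 libraries (1.17), was 1.04 among regions with hotspots in all 6 libraries and 1.09 per kb. No region named for a comparison changed direction in any alternative run. The naming rule asked for both libraries of a group to lie beyond both of the other group. This outcome was therefore largely fixed in advance and is no sign of robustness. With 1 library left in a group, that library is assumed to vary like the others. Depth limits the low regions most. In the 20 named LPS regions, SEs of the LPS change ran from 0.134 (19.6 CPM) to 0.325 (1.77 CPM).

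The replicate numbers were not used as pairs in the main fit. Deviations of same-numbered libraries had correlations of 0.05, 0.10 and 0.00 between the groups. With 2 libraries per group, these values cannot settle whether same-numbered cultures were prepared together. With a replicate block, 36 regions were called with LPS (16 increased, 20 decreased), 5 with GCM (1 increased, 4 decreased) and 42 between GCM and LPS. These are 4.76%, 0.661% and 5.55% of the stretch. The medians over the 233 windows in the same fit were 11.4%, 2.37% and 9.98%.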
